A study of Mus musculus with 6 samples.

Results

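The genes described here encode the DNA replication machinery and the repair factors that act at replication forks. They are 53 genes chosen by name, from origin licensing to fork repair, and kept where their mean was at least 1 CPM over the 6 libraries (CPM, counted reads scaled to a total of 1000000 per library). All 53 passed, among 10511 genes that did so out of 25654 with a value. The lowest were Dscc1, with a mean of 4.72 CPM, and Pole2, with a mean of 6.06 CPM, so no gene of the list lay near the minimum.

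RNA was measured in CD8 T cells, which are lymphocytes able to kill infected cells, from the spleens of female wild-type C57BL/6 mice. Young mice were 6 weeks old and aged mice around 65 weeks old, and each age gave 3 libraries. In both groups the purified cells were activated for 2 days on immobilized antibodies to the T cell receptor β chain (3 µg/ml) and to CD28 (1 µg/ml), in medium with 10 ng/ml of interleukin 2, then grown for 5 days with interleukin 2 alone. All 6 libraries therefore come from cultured cells 7 days after activation, and a difference in culture cannot be told apart from a difference in age. The labels call the libraries biological replicates without naming the mouse or mice behind each, so the p-values measure the spread between these libraries, which may be technical.

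Before S phase, the origin recognition complex, CDC6 and CDT1 load the ring-shaped MCM2-7 helicase onto origins of replication, a step called licensing. In S phase CDC45 and the GINS complex turn the ring into the active helicase, polymerase α with its primase starts each new strand, and polymerases δ and ε extend it on the sliding clamp PCNA. Activated CD8 T cells divide very rapidly, and many of these genes are classic targets of the E2F transcription factors, which switch on gene expression at entry into S phase.

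Most replication genes of this list were higher in aged than in young cells. The list was chosen with earlier results of these data known, and of 79 other replication and fork repair identifiers, described below, 46.8% rose. Of the 53 genes, 43 rose, 0 fell and 10 did not pass the test, limma at a Benjamini-Hochberg adjusted p under 0.05 over all 10511 genes. Of all tested genes, 16.2% were called higher and 12.5% lower. At an unadjusted p under 0.05 in limma 0 of the 53 were lower, and edgeR and DESeq2 also called 0 lower. The median log2 fold change, aged minus young on log2(CPM + 1), was 0.82 over the 53 genes, against 0.03 over all tested genes, with a range from 0.01 for Msh6 to 1.29 for Ung. The change was at least 1 on this scale in 12 genes.

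Summed over the 53 genes, the level was 2755, 2486 and 2901 CPM in Young replicates 1, 2 and 3 and 4738, 4792 and 4734 CPM in Aged replicates 1, 2 and 3. The mean was 2714 ± 211 CPM over the young libraries and 4754 ± 32.3 CPM over the aged ones (SD, n = 3 each), a 1.75-fold difference. In 47 of the 53 genes every aged library lay above every young one, which was so for 22.5% of all tested genes. The young libraries lay further apart than the aged ones. Young replicate 2 was the lowest young library in 35 genes, and Young replicate 3 the highest in 29. The median log2 difference from the young mean was 0.05, -0.12 and 0.08 in the young libraries and 0.81, 0.80 and 0.83 in the aged libraries. Without Young replicate 2 the median log2 fold change was 0.71 and 42 genes were called higher. In bulk RNA a larger share of cells in S phase and more of these transcripts per cell cannot be told apart. Group and replicate values below are given in the order of replicates 1, 2 and 3, and means with the SD over 3 libraries.

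**Figure D1:**
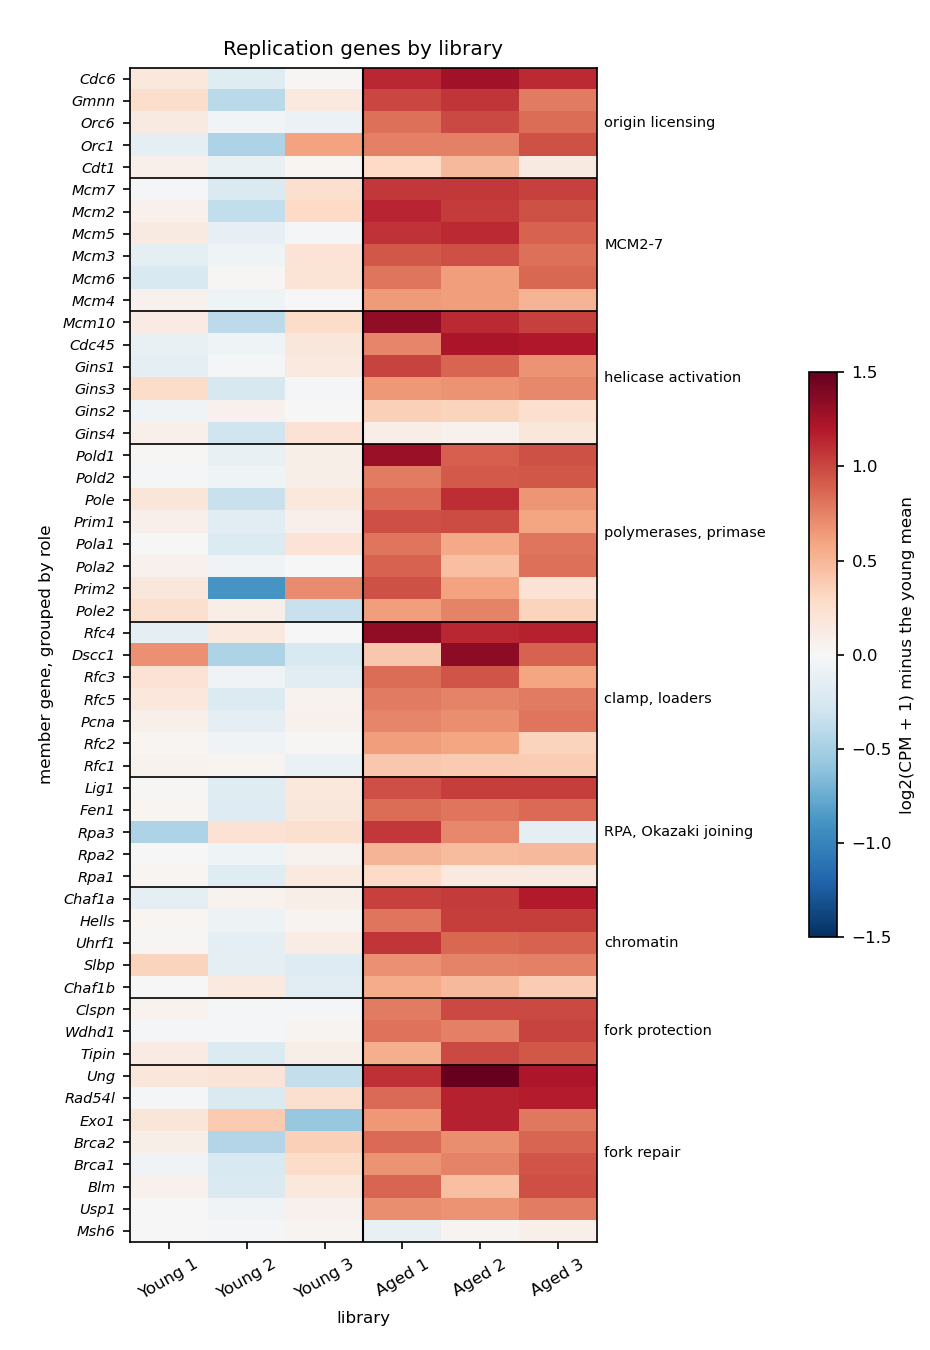
Level of each of the 53 replication genes (rows, grouped by role) in each of the 6 libraries (columns), as log2(CPM + 1) minus the gene's young mean, with red above and blue below it. The 3 aged columns are red in nearly every row, and Msh6, Gins4 and Rpa1 stay pale.

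The promoters of these genes were read for short motifs, since the genes moved together and many are known E2F targets. RefSeq promoter windows (GRCm38.p6), 250 bases before to 50 bases after the start site, were matched by symbol for 41 of the 53 genes, in 48 windows. The E2F site was searched as TTTGGCGC, TTTCGCGC, TTTCCCGC or TTTGCCGC on both strands, where overlapping matches on opposite strands were counted apart. It lay in 18 of 48 windows (37.5%), each of a different gene, against 744 of 32851 windows of all genes (2.265%) and 443 of 10674 windows of tested genes (4.15%). Among windows of tested genes with at least 16 CpG dinucleotides the share was 5.318%. Of the 24 matches in these genes, 15 lay within 100 bases of the start site.

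The first pair of sequences shows where the site can be doubled. In the genes of the helicase subunits Mcm6 and Mcm5, 2 matches on opposite strands overlap in 1 block, and Mcm6 has a further match nearer its start. These are the 250 bases upstream of each start site, 5′ to 3′ on the gene's own strand, with the matched bases in capitals. Mcm6 lies on the minus strand (chr1:128359706-128359955) and Mcm5 on the plus strand (chr8:75109259-75109508).
Mcm6: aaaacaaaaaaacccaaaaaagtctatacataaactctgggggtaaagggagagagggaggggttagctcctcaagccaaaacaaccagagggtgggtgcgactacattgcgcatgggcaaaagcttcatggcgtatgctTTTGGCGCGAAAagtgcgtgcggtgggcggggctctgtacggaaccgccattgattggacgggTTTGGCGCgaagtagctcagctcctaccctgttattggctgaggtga
Mcm5: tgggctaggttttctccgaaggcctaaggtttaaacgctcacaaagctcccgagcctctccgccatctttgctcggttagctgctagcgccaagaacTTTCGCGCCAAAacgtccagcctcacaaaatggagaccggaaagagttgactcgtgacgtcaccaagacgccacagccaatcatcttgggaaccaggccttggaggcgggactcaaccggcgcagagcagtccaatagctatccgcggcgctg

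The second set shows 1 match per gene, each in 30 bases on the gene's own strand, for genes whose levels are described below. In Cdc6, Orc1, Lig1 and Mcm3 the block lies on the opposite strand and so reads as its reverse complement. In Rfc3, Hells, Cdt1 and Msh6 it reads on the gene's own strand. Rfc3 holds a further match that is not in capitals here, and Mcm3 holds one that begins just past the bases shown. Cdt1 and Msh6 are shown because they carry a match and were not among the genes called higher. The windows are chr11:98908002-98908031 for Cdc6, chr4:108579416-108579445 for Orc1, chr7:13278841-13278870 for Lig1, chr1:20820275-20820304 for Mcm3, chr5:151651200-151651229 for Rfc3, chr19:38930917-38930946 for Hells, chr8:122568035-122568064 for Cdt1 and chr17:87975054-87975083 for Msh6.
Cdc6: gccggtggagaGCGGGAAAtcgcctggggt
Orc1: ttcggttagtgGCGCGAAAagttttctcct
Lig1: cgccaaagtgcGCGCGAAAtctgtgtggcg
Mcm3: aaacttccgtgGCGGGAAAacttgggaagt
Rfc3: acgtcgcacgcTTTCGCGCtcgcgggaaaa
Hells: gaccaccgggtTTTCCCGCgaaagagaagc
Cdt1: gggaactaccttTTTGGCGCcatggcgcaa
Msh6: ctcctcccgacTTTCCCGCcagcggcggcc

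Genes with and without a match are given side by side. Of the 18 genes with an E2F match 15 were called higher, and the median log2 fold change was 0.86, with a range from 0.01 to 1.17. Of the 23 genes with a window and no match 20 were called higher, with a median of 0.83 and a range from 0.19 to 1.29. The 3 genes with a match that were not called were Cdt1, Msh6 and Pole2. A match is a run of letters and not a measured binding site, and no match says only that these letters are not in the window.

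Other motifs had other shares. The CHR element of late cell cycle genes (TTTGAA or TTCGAA, both strands) lay in 14.6% of the windows of replication genes, in 14.2% of the windows of tested genes and in 80.8% of the 26 windows of a comparison list of G2 and M phase genes. The E2F site lay in 3.85% of these 26 windows. The CCAAT box (CCAAT, both strands) lay in 62.5% of the replication windows, 80.8% of the G2 and M phase windows and 38.1% of the windows of tested genes. The E-box CACGTG lay in 12.5%, 7.69% and 10.1%.

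**Figure D2:**
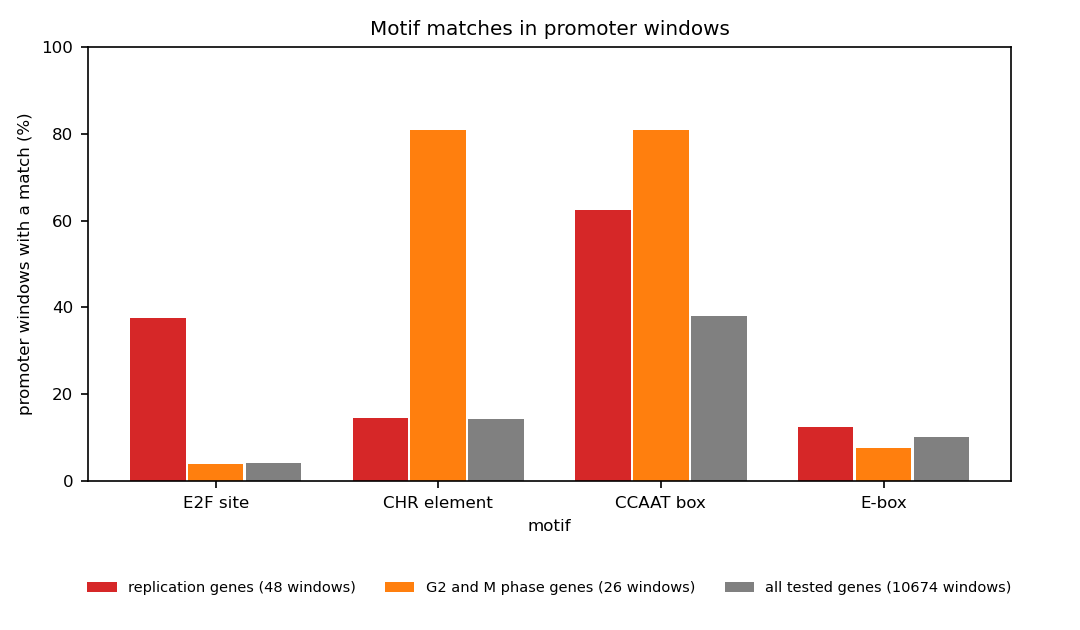
Share of promoter windows (vertical axis, percent) that hold each of 4 motifs (horizontal axis) for replication genes (48 windows), G2 and M phase genes (26 windows) and all tested genes (10674 windows). The E2F site was in 37.5% of the replication windows and 3.85% of the G2 and M phase windows, and the CHR element in 14.6% and 80.8%.

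Of the 5 genes of origin recognition and licensing control 4 rose and 1 was not called, with a median log2 fold change of 0.88. Cdc6 (ENSMUSG00000017499, chromosome 11, 98907801 to 98923940, GRCm38), the ATPase that joins the origin recognition complex to the helicase loader, had 25.2, 19.7 and 22.7 CPM in young cells, against 50.2, 55.2 and 49.9 CPM in aged cells. The groups lay far apart, and the gene rose by 1.17 ± 0.14 (SE) on the log2 scale, or 2.30-fold (limma adjusted p = 5.27e-06). Orc6, a subunit of the origin recognition complex, stood at 25.6, 22.6 and 21.9 CPM in young cells and at 42.0, 47.2 and 42.4 CPM in aged cells. Every aged library was above every young one, 1.87-fold on the means (limma adjusted p = 0.000116). Gmnn encodes geminin, the inhibitor that binds CDT1 and stops origins from being licensed again, and it rose 1.94-fold, with 26.9 ± 6.32 CPM in young cells against 52.1 ± 5.32 CPM in aged cells (limma adjusted p = 0.000203). Orc1, the largest subunit of the complex, was at 6.96, 5.38 and 12.3 CPM in the young libraries and at 13.8, 13.8 and 16.0 CPM in the aged libraries. It passed the test at 1.77-fold (limma adjusted p = 0.0268), although its highest young library came close to its lowest aged ones. The call of Orc1 was lost with DESeq2 (adjusted p = 0.159) and without Young replicate 1, Young replicate 2, Aged replicate 1 or Aged replicate 3 (limma adjusted p = 0.0897, 0.137, 0.0505 and 0.0765).

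Cdt1, the loader that geminin blocks, was the exception in this group. It had 41.3, 35.9 and 40.0 CPM in young cells, against 48.1, 55.2 and 42.8 CPM in aged cells. The groups did not overlap, and the log2 difference of 0.31 ± 0.13 (SE; 95% interval 0.03 to 0.58) did not pass the test (limma adjusted p = 0.0922). Without Aged replicate 3 it was 0.39, with a limma adjusted p of 0.0497. The log2 ratio of Cdt1 to Gmnn within a library was 0.37, 0.83 and 0.44 in young and -0.16, -0.03 and -0.10 in aged cells, so 3′ reads of the loader outnumbered those of its inhibitor in every young library and in no aged one. The mean ratio was 0.55 ± 0.25 in young and -0.10 ± 0.06 in aged cells (SD, n = 3 per group). The difference of -0.64 had p = 0.1 in an exact two-sided permutation test over the 20 assignments, which is the smallest p that 3 against 3 libraries allow. This pair was chosen with earlier results of these data known, so the p adds no independent support.

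All 6 genes of the MCM2-7 helicase rose, with a median log2 fold change of 0.97. Summed, they were at 624, 587 and 729 CPM in the young libraries and 1250, 1235 and 1184 CPM in the aged libraries, a 1.89-fold difference of the means. Mcm7 (ENSMUSG00000029730, chromosome 5, 138164583 to 138172422, GRCm38), a subunit of the ring measured with 464 to 1115 reads per library, stood at 202, 175 and 241 CPM in young cells and at 426, 427 and 416 CPM in aged cells. The aged libraries lay within a few percent of each other and the gene rose by 1.05 ± 0.09 (SE) on the log2 scale (limma adjusted p = 7.25e-08). Mcm3 was at 139, 147 and 178 CPM in the young libraries and at 294, 302 and 272 CPM in the aged libraries. It rose by 0.91 ± 0.09 (limma adjusted p = 3.5e-07) and the groups did not overlap.

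Mcm4 had the smallest change of the 6 subunits. It had 86.5, 79.0 and 82.2 CPM in young cells, against 129, 128 and 118 CPM in aged cells, a 1.51-fold rise (limma adjusted p = 6.82e-05). The other folds were 2.06 for Mcm5, 2.05 for Mcm2 and 1.69 for Mcm6. The folds of the 6 subunits, which form the ring in equal numbers, were not tested against each other. Reads of Mcm7 could be shared with 2 microRNA genes inside it, Mir25 and Mir93, and the 3′ end of a transcript of Mcm5 is near-identical to transcript ends of 4 other genes, Glcci1, Polh, Tnfrsf14 and Vps33b. Without these and the 3 further genes whose reads could be shared (Pola2, Pole2 and Rpa1), 40 of the 48 genes left were called higher.

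Of the 6 genes of helicase activation 4 rose and 2 were not called, with a median log2 fold change of 0.77. Mcm10 (ENSMUSG00000026669, chromosome 2, 4989714 to 5012791, GRCm38), a scaffold needed to start unwinding, stood at 17.8, 12.2 and 20.0 CPM in young cells and at 42.5, 36.8 and 34.4 CPM in aged cells. It was 2.27-fold higher, by 1.16 ± 0.18 (SE) on the log2 scale (limma adjusted p = 9.17e-05). Cdc45, the helicase cofactor, was at 8.69, 8.97 and 10.8 CPM in the young libraries and at 16.4, 23.4 and 23.1 CPM in the aged libraries. Its lowest aged library was well above its highest young one (2.21-fold, limma adjusted p = 0.00101).

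The 4 subunits of GINS, the second helicase cofactor, did not all pass the test. Gins1 rose 1.95-fold and Gins3 1.63-fold (limma adjusted p = 0.0158 and 0.00908), and both calls were lost with DESeq2 (adjusted p = 0.119 and 0.0793). Gins1 also lost its call without Young replicate 1 or Aged replicate 1 (limma adjusted p = 0.0545 and 0.0601). Gins2 had 30.9, 33.7 and 31.9 CPM in young cells, against 41.5, 40.6 and 38.6 CPM in aged cells. These values do not overlap, and the log2 difference was 0.31 ± 0.13 (SE; 95% interval 0.04 to 0.59; limma adjusted p = 0.0849). Gins4 stood at 27.8, 21.2 and 30.7 CPM in young cells and at 28.2, 27.6 and 29.6 CPM in aged cells. Its groups overlap, its log2 difference was 0.11 ± 0.16 (95% interval -0.23 to 0.46; limma adjusted p = 0.671), and the sign turned without Young replicate 2 (-0.04).

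Among the 8 genes of the replicative polymerases and primase 6 rose and 2 were not called, with a median log2 fold change of 0.79. Pold1 (ENSMUSG00000038644, chromosome 7, 44532746 to 44548849, GRCm38), the catalytic subunit of polymerase δ, which copies the lagging strand, was at 19.6, 17.9 and 20.7 CPM in the young libraries and at 49.2, 36.8 and 38.6 CPM in the aged libraries. It was 2.14-fold higher, by 1.05 ± 0.16 (SE) on the log2 scale (limma adjusted p = 5.62e-05). Pold2, the accessory subunit of the same enzyme, had 26.1, 25.5 and 28.4 CPM in young cells, against 46.6, 51.4 and 51.8 CPM in aged cells. The rise of Pold2 was 1.87-fold (limma adjusted p = 5.74e-05). The catalytic subunits of polymerase α (Pola1), of polymerase ε of the leading strand (Pole) and of primase (Prim1) rose 1.66-fold, 1.89-fold and 1.85-fold (limma adjusted p = 0.00014, 0.00298 and 0.000836). Pola2, the regulatory subunit of polymerase α, rose 1.72-fold (limma adjusted p = 0.0122), a call lost with DESeq2 (adjusted p = 0.0948) and without Aged replicate 1 (0.0542).

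The 2 polymerase genes that were not called were those of an accessory subunit each, and Pole2 was at a low level. Pole2 stood at 5.65, 5.03 and 3.46 CPM in young cells and at 7.68, 8.43 and 6.12 CPM in aged cells. Its groups did not overlap, and its log2 difference was 0.57 ± 0.30 (SE; 95% interval -0.05 to 1.19; limma adjusted p = 0.166). Prim2, the large subunit of primase, was at 10.0, 4.31 and 15.0 CPM in the young libraries and at 17.9, 13.8 and 10.4 CPM in the aged libraries. The young libraries of Prim2 spread more widely than the groups differed (limma adjusted p = 0.191). Young replicate 3 held the highest young value, and without it the log2 difference was 0.94, with a limma adjusted p of 0.0372.

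Of the 7 genes of the clamp and its loaders 6 rose, with a median log2 fold change of 0.77. Pcna (ENSMUSG00000027342, chromosome 2, 132249162 to 132253314, GRCm38), the ring that tethers polymerases to DNA, had 162, 138 and 161 CPM in young cells, against 255, 249 and 269 CPM in aged cells. It rose by 0.75 ± 0.08 (SE), 1.68-fold (limma adjusted p = 1.16e-06). Rfc5, a small subunit of the clamp loader, stood at 47.4, 36.6 and 44.2 CPM in young cells and at 73.8, 72.1 and 73.9 CPM in aged cells. The aged libraries of Rfc5 were nearly level and the rise was 1.71-fold (limma adjusted p = 7.25e-05). Rfc2 and Rfc3, also small subunits, rose 1.45-fold and 1.75-fold.

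Rfc4, the remaining small subunit, was at 3.04, 3.95 and 3.46 CPM in the young libraries and at 10.2, 8.82 and 8.94 CPM in the aged libraries. These values rest on 7 to 23 reads per library and do not overlap, and Rfc4 rose 2.68-fold (limma adjusted p = 0.00322). Rfc1, the large subunit, had 135, 134 and 121 CPM in young cells, against 172, 170.2 and 168 CPM in aged cells. Its rise was 1.31-fold (limma adjusted p = 0.0011), and its groups did not overlap. The log2 ratio of Rfc1 to the mean of Rfc2, Rfc3, Rfc4 and Rfc5 was 2.34, 2.44 and 2.27 in young and 1.86, 1.89 and 2.01 in aged cells, which do not overlap. Rfc4, on its few reads, weighs as much in this ratio as each other small subunit. The difference of the means was -0.43 (exact two-sided permutation p = 0.1, the smallest possible). This comparison too was chosen with earlier results of these data known. Dscc1, a subunit of the alternative loader that acts with sister chromatid cohesion, stood at 5.22, 1.79 and 2.31 CPM in young cells and at 4.10, 8.82 and 6.12 CPM in aged cells, or 5 to 23 reads. The groups of Dscc1 overlapped, and the log2 difference of 0.88 ± 0.37 (SE; 95% interval 0.10 to 1.65) was not called (limma adjusted p = 0.0849). Without Young replicate 1 it was 1.22 and without Aged replicate 1 it was 1.11, with limma adjusted p of 0.0331 and 0.0498.

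Of the 5 genes of single-strand binding and Okazaki fragment joining 3 rose, with a median log2 fold change of 0.55. Lig1 (ENSMUSG00000056394, chromosome 7, 13277283 to 13311433, GRCm38), the ligase that seals the fragments of the lagging strand, was at 333, 290.4 and 368 CPM in the young libraries and at 643, 675 and 679 CPM in the aged libraries. It had the smallest p of the 53 genes, with a rise of 1.01 ± 0.07 (SE) on the log2 scale, 2.01-fold (limma adjusted p = 1.34e-08). Fen1, the nuclease that trims the flap before sealing, had 46.1, 39.5 and 51.1 CPM in young cells, against 81.9, 79.7 and 82.4 CPM in aged cells. Its rise was 1.79-fold (limma adjusted p = 2.34e-05).

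The 3 subunits of RPA, which coats single-stranded DNA, differed in their calls. Rpa2 rose 1.41-fold (limma adjusted p = 0.000251). Rpa1, the large subunit, stood at 79.6, 68.9 and 86.8 CPM in young cells and at 96.3, 86.3 and 85.7 CPM in aged cells. Its groups overlapped, with Young replicate 3 just above Aged replicates 2 and 3. The log2 difference of Rpa1 was 0.19 ± 0.11 (SE; 95% interval -0.03 to 0.41; limma adjusted p = 0.2). Rpa3, the smallest subunit, was at 4.35, 7.54 and 7.68 CPM in the young libraries and at 14.3, 11.1 and 5.65 CPM in the aged libraries. Aged replicate 3 lay among the young libraries, and the difference of 0.55 ± 0.32 was not called (95% interval -0.12 to 1.21; limma adjusted p = 0.222). Without that library it was 0.89, with a limma adjusted p of 0.0367.

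Among the 5 genes that copy or supply chromatin at the fork 4 rose, with a median log2 fold change of 0.94. Hells (ENSMUSG00000025001, chromosome 19, 38930915 to 38971051, GRCm38), a chromatin remodeller that aids DNA methylation, had 90.9, 84.7 and 91.8 CPM in young cells, against 157, 183 and 184 CPM in aged cells. It rose by 0.96 ± 0.09 (SE) on the log2 scale (limma adjusted p = 2.42e-07). Uhrf1, which recognizes hemimethylated DNA behind the fork, stood at 68.7, 62.1 and 73.8 CPM in young cells and at 144, 125 and 126 CPM in aged cells. The gene was 1.93-fold higher (limma adjusted p = 1.08e-06). Slbp, the protein that binds the stem-loop of histone mRNA, rose 1.65-fold (limma adjusted p = 0.000485). The 2 large subunits of the histone chaperone CAF-1 were called differently. Chaf1a rose 2.17-fold, with 25.2 ± 2.30 CPM in young cells against 54.8 ± 3.54 CPM in aged cells (limma adjusted p = 6.43e-06). Chaf1b was at 16.5, 18.3 and 14.6 CPM in the young libraries and at 24.6, 23.4 and 21.6 CPM in the aged libraries. Its groups did not overlap and its log2 difference of 0.47 ± 0.18 (SE; 95% interval 0.10 to 0.85) narrowly missed the threshold (limma adjusted p = 0.0544, and 0.0476 with the minimum mean raised to 5 CPM). The difference between Chaf1a and Chaf1b was not tested.

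All 3 genes of fork protection and the replication checkpoint rose, with a median log2 fold change of 0.86. Clspn (ENSMUSG00000042489, chromosome 4, 126556935 to 126593903, GRCm38) encodes claspin, the adaptor that passes the stalled-fork signal to the kinase CHK1, and it had 55.2, 52.4 and 52.3 CPM in young cells, against 92.2, 107 and 107 CPM in aged cells. It was 1.91-fold higher (limma adjusted p = 2.12e-06). Tipin, a part of the complex that steadies stalled forks, stood at 52.6, 41.6 and 51.5 CPM in young cells and at 70.7, 96.6 and 92.7 CPM in aged cells. Aged replicate 1 was the lowest aged library and still above all young ones (1.78-fold, limma adjusted p = 9.58e-05). Wdhd1, which ties polymerase α to the helicase, was at 17.8, 17.9 and 18.8 CPM in the young libraries and at 32.8, 31.4 and 37.6 CPM in the aged libraries. Its rise was 1.87-fold (limma adjusted p = 0.00039).

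Of the 8 genes of replication-coupled repair 7 rose, with a median log2 fold change of 0.80. Usp1 (ENSMUSG00000028560, chromosome 4, 98923810 to 98935543, GRCm38), the enzyme that removes ubiquitin from PCNA and FANCD2, had 189.6, 184 and 199 CPM in young cells, against 309, 304 and 326 CPM in aged cells. It rose by 0.71 ± 0.07 (SE) on the log2 scale, 1.64-fold (limma adjusted p = 4.41e-07). Ung (ENSMUSG00000029591, chromosome 5, 114130386 to 114139323, GRCm38), the glycosylase that removes uracil from DNA, stood at 17.0, 17.2 and 11.5 CPM in young cells and at 33.3, 45.6 and 36.2 CPM in aged cells. Its log2 difference of 1.29 ± 0.19 was the highest of the 53 genes, and its groups lay far apart (2.52-fold, limma adjusted p = 3.53e-05).

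The genes of homologous recombination in the list are Rad54l, Brca1, Brca2, Blm and Exo1, and all 5 rose. Rad54l, a motor that aids strand exchange, was 2.13-fold higher, Brca1 and Brca2, which act in repair of double-strand breaks, 1.76-fold and 1.75-fold, and the helicase Blm 1.74-fold (limma adjusted p = 5.11e-05, 0.00381, 0.00235 and 0.00262). Exo1, the nuclease that resects DNA ends and acts in mismatch repair, rose 1.86-fold (limma adjusted p = 0.0155), and this call was lost with DESeq2 (adjusted p = 0.0827), without Young replicate 3 (limma, 0.0843) and without Aged replicate 2 (0.0738).

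Msh6 (ENSMUSG00000005370, chromosome 17, 87975062 to 87990892, GRCm38), which finds base mismatches left by the polymerases, had the smallest difference of all. It was at 52.2, 51.3 and 53.8 CPM in the young libraries and at 48.7, 54.1 and 55.5 CPM in the aged libraries. The groups overlapped fully, with 52.4 ± 1.25 CPM in young cells against 52.7 ± 3.62 CPM in aged cells, and the log2 difference was 0.01 ± 0.12 (SE; 95% interval -0.23 to 0.25; limma adjusted p = 0.976), with its sign turned under TMM, RLE and upper-quartile scaling, with edgeR, DESeq2 and limma-voom, and without Young replicate 2, Aged replicate 2 or Aged replicate 3. The rise of Pcna, 0.75 ± 0.08 (SE), lies outside this interval, and the difference between Msh6 and Pcna was not tested.

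**Figure D3:**
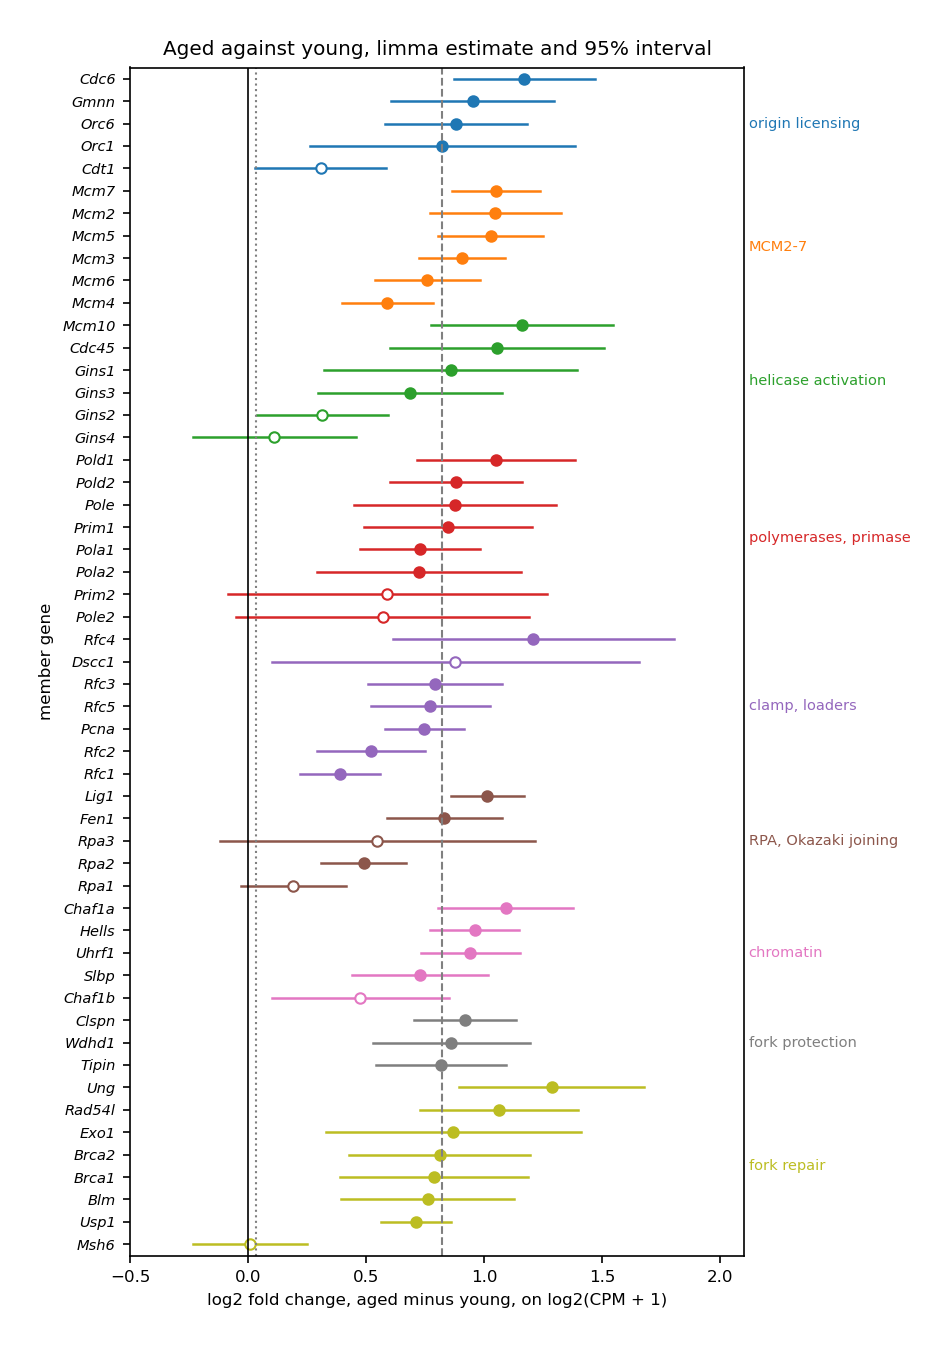
Log2 fold change of each replication gene, aged minus young on log2(CPM + 1) (horizontal axis), as limma's estimate (point) with its 95% interval (line), by gene and coloured by role. Filled points passed the test and open points did not, the dashed line marks the median of the 53 genes (0.82) and the dotted line that of all tested genes (0.03).

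The share of genes called higher was larger at higher levels, in this list as over all genes. Of the 5 replication genes with a mean under 10 CPM 2 were called higher, of the 16 from 10 to 30 CPM 13, of the 22 from 30 to 100 CPM 18, and of the 10 at 100 CPM or more all 10. Over all tested genes the shares called higher in these classes were 4.17%, 12.1%, 23.7% and 33.8%. Msh6, Rpa1, Cdt1, Gins2, Gins4, Chaf1b and Prim2 were not called at levels where most genes of the list were, while Dscc1, Pole2 and Rpa3 were measured with few reads.

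The remaining subunits and factors of replication and fork repair were counted from 3 further lists. Of their 79 identifiers 37 rose (46.8%, against 16.2% of all tested genes) and 1 fell, with a median log2 fold change of 0.47. DESeq2 called 21 of them higher and 1 lower, against 952 higher and 1017 lower of all 10511 tested genes. Among 14 other origin and initiation factors 6 rose and 8 were not called. Orc2, a further subunit of the origin recognition complex, had 44.8, 35.9 and 49.6 CPM in young cells, against 87.6, 97.8 and 96.0 CPM in aged cells, a 2.16-fold rise (limma adjusted p = 1.73e-06). Topbp1, an activator of both origins and the checkpoint kinase ATR, and Dbf4, the partner of the kinase CDC7, rose 1.63-fold and 1.49-fold.

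Of 24 identifiers for 23 other replisome subunits and fork factors 16 rose (66.7%, against 16.2% of all tested genes) and 1 fell. Nasp, a histone chaperone, stood at 94.8, 89.4 and 109 CPM in young cells and at 197, 200.1 and 204 CPM in aged cells, and rose 2.05-fold (limma adjusted p = 7.85e-08). Pclaf, a PCNA-binding factor, and Dnmt1, the maintenance DNA methyltransferase, rose 1.77-fold and 1.60-fold. The gene that fell was Pold4, the smallest subunit of polymerase δ. Pold4 was at 23.0, 34.5 and 28.1 CPM in the young libraries and at 15.9, 12.7 and 15.5 CPM in the aged libraries. The groups did not overlap, and it fell by 0.90 ± 0.19 (SE) on the log2 scale (limma adjusted p = 0.00133), whereas Pold1 and Pold2 rose. An exon of another gene model overlaps Pold4 on the same strand, so its reads could be shared. The remaining subunit, Pold3, looked up after these values were seen, also rose, with 32.4 ± 5.57 CPM in young cells against 47.0 ± 4.37 CPM in aged cells (limma adjusted p = 0.00933), a call lost with DESeq2.

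**Figure D4:**
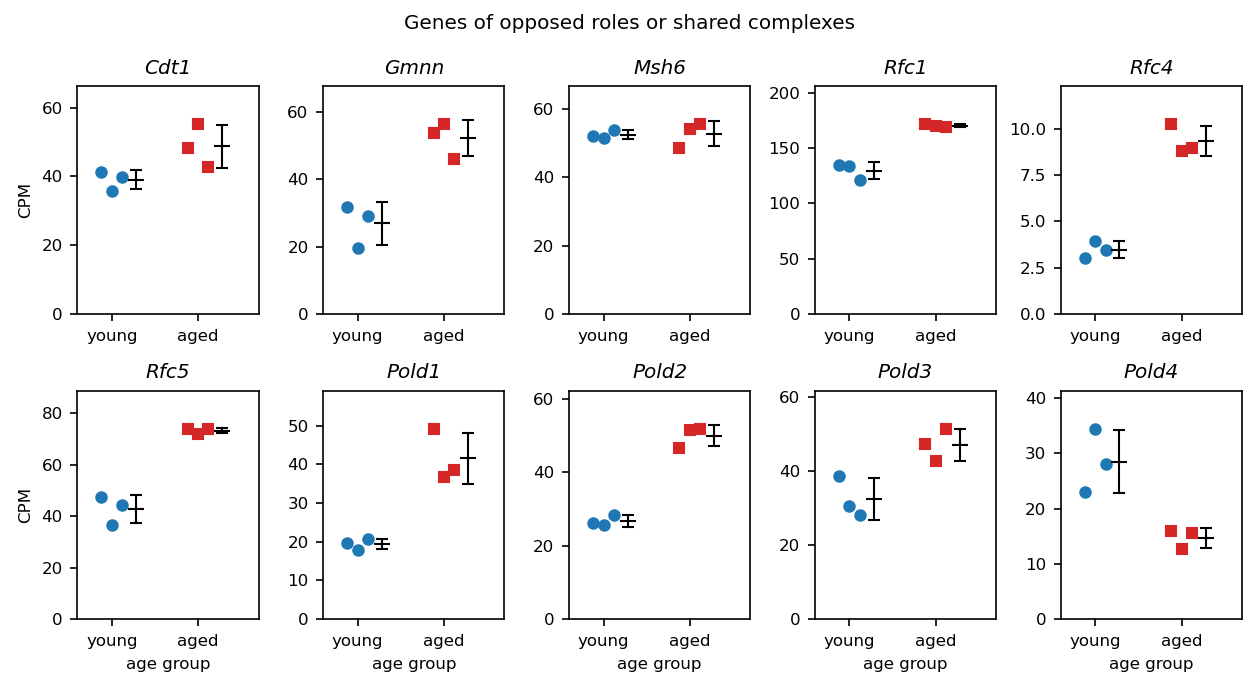
Level in CPM (vertical axis, from 0) of 10 genes in each young (circles) and aged (squares) library, with the group mean and SD in black. Pold4 is lower in every aged library while Pold1, Pold2 and Pold3 are higher, and Msh6 overlaps between groups.

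Of 41 other genes of fork repair and homologous recombination 15 rose (36.6%, against 16.2% of all tested genes) and 26 were not called. Bard1, the partner of BRCA1, rose 2.47-fold and Rad50, a part of the end-sensing MRN complex, 1.33-fold (limma adjusted p = 0.00017 and 0.000587). The count of 15 was 5 with DESeq2, which called 952 of all 10511 tested genes higher. It was 9 without Young replicate 2 (1322 of all 10496 higher) or without Aged replicate 1 (1439 of all 10522 higher). The median over 7 genes of translesion synthesis, in which low-fidelity polymerases pass damaged bases, was 0.02. Of the 7, 1 rose, or 14.3%, close to the 16.2% of all tested genes. This was Rev3l at 1.31-fold (limma adjusted p = 0.0209), a call lost with DESeq2, with all libraries thinned to the depth of the shallowest and without Young replicate 2, Aged replicate 1 or Aged replicate 2.

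Of 30 repair genes that act outside replication 4 rose and 4 fell, or 13.3% in each direction, close to the 16.2% higher and 12.5% lower of all tested genes. Their median log2 fold change was 0.09. DESeq2 called 1 of the 30 higher and 2 lower. Xpa, which verifies damage in nucleotide excision repair, had 62.2, 68.6 and 50.7 CPM in young cells, against 27.7, 24.9 and 38.1 CPM in aged cells. It fell by 0.99 ± 0.16 (SE) on the log2 scale (limma adjusted p = 9.55e-05). Ercc5, the excision nuclease, fell by 0.82 ± 0.23 (SE) (limma adjusted p = 0.0118), a call lost with DESeq2 and without Young replicate 1. Mgmt, which removes alkyl groups from guanine, was lower as well (limma adjusted p = 0.00646), but its aged values of 0.383 to 1.41 CPM lie at the level that a count of 0 allows, 3 reads or 1.08 to 1.54 CPM in a library. Among those that rose, Parp1, Xrcc5 and Atm, sensors of DNA breaks, were 1.40-fold, 1.38-fold and 1.30-fold higher. The calls of Xrcc5 and Atm were lost with DESeq2, that of Xrcc5 also without Aged replicate 3, and that of Atm also after thinning and without Young replicate 3 or Aged replicate 2.

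A list of 30 G2 and M phase genes, the nearest comparison, is given beside the replication genes. All 30 passed the test as higher. Their median log2 fold change was 0.85, within a range of 0.44 to 1.40, against 0.82 for the replication genes. The per-library medians were 0.04, -0.25 and 0.23 in young and 0.82, 0.84 and 0.79 in aged cells, so Young replicate 2 was lowest here too. Mki67, the proliferation marker, was 235 ± 33.3 CPM in young cells against 468 ± 12.8 CPM in aged cells. Top2a stands in both this list and that of other replisome factors. A difference between the 2 phases was not tested.

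**Figure D5:**
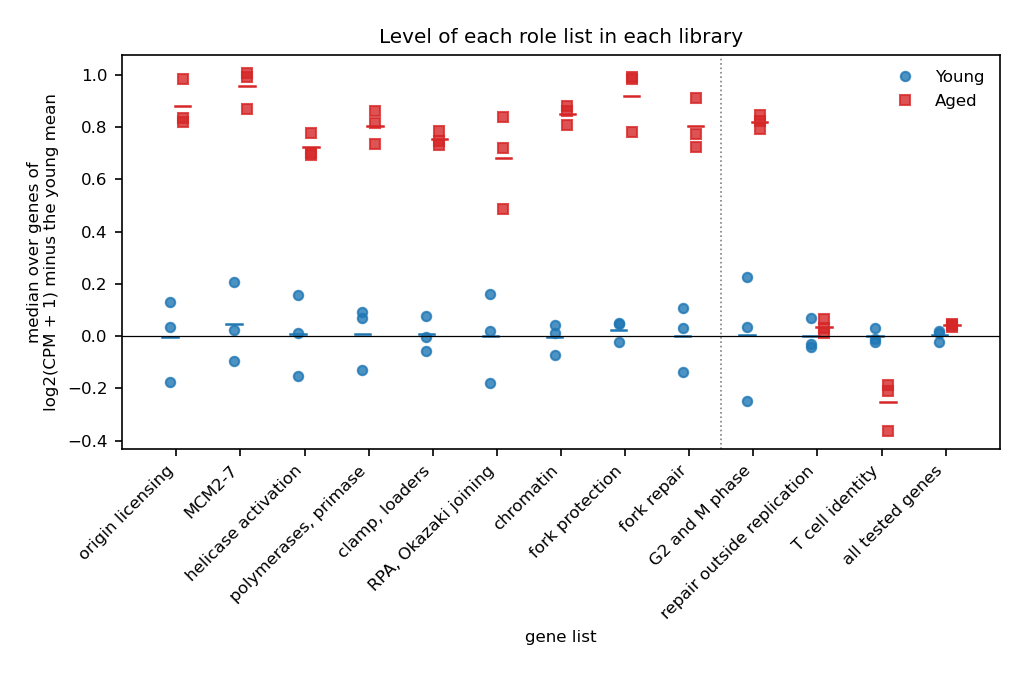
Median over the genes of each list of log2(CPM + 1) minus the young mean (vertical axis) in each young (circles) and aged (squares) library, with short lines for the group means. All 9 replication lists and the G2 and M phase list lie higher in aged libraries, while repair outside replication stays near 0 and T cell identity genes lie lower.

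The libraries held 1952552 to 2785915 reads, so that 1 read was worth 0.359 to 0.512 CPM. The labelled cell type was checked by markers. The 10 T cell identity genes, Cd3d, Cd8a and Cd8b1 among them, summed to 3056 to 3166 CPM in young and 2471 to 2656 CPM in aged libraries, with 5 of the 10 called lower, and Cd4 was at most at 0.384 CPM, or 1 read. The sum over markers of B and plasma cells ran from 70.7 to 95.3 CPM in the young libraries and from 98.8 to 108.9 CPM in the aged libraries. It came mostly from Xbp1, which was called higher (limma adjusted p = 0.00734). Of the 10 markers 6, Cd79a and Ms4a1 included, were at 0 in every library. The other tested marker, Cd79b, was called lower (limma adjusted p = 0.00515), on 0 to 26 reads per library. Cd79b was at 6.52, 2.51 and 9.99 CPM in the young libraries and at 0, 1.53 and 1.41 CPM in the aged libraries. The lists of myeloid (23.0 to 27.8 against 12.3 to 23.5 CPM), dendritic (27.3 to 44.3 against 12.7 to 19.0 CPM), and red cells and platelets (10.4 to 22.3 against 1.15 to 4.71 CPM) were lower or overlapping in aged cells, with Lyz2, Adgre1, Flt3, Clec9a and Pf4 at 0 throughout. Cd68 and Xcr1, the largest myeloid and dendritic markers, were called lower. Of 4 tested myeloid and 3 tested dendritic markers 1 each went the other way, Csf1r and Itgax, and neither was called. Csf1r was at 7.06 CPM in Aged replicate 3 and at 0 elsewhere. Itgax was at 0, 1.08 and 1.54 CPM in young and 3.07, 1.53 and 2.35 CPM in aged libraries. Cd14, not tested, was at 0.43, 0.72 and 0 against 1.54, 2.68 and 0.47 CPM. The 4 CD4 T cell markers summed to 19.6 to 23.7 and 11.3 to 18.9 CPM, mostly from Zbtb7b, which was called lower (limma adjusted p = 0.0241). Cd40lg, the other tested marker, went the other way and was not called (limma adjusted p = 0.22). It was at 0.43, 0.36 and 0.77 CPM in young and 1.02, 1.53 and 2.35 CPM in aged libraries. Foxp3 was at 3.07 CPM in Aged replicate 1 and lower elsewhere. NK cell markers, mostly Eomes, summed to 214 to 244 CPM in young and 255 to 349.7 CPM in aged cells, with Ncr1 at 0.384 CPM or less. Of the 5 tested NK cell markers 3 were called higher, namely Eomes, Fcer1g and Klre1. Klre1 had 3.12 ± 2.07 CPM in the young libraries against 13.1 ± 3.05 CPM in the aged ones. Klrb1c and Tyrobp went the other way and were not called. Their log2 differences were -0.52 and -0.38 (limma adjusted p = 0.0599 and 0.467). Every aged value of Klrb1c lay below every young one. Whether the authors counted reads by strand is not given in the sources used here. Exons of 18 of the 53 genes, Lig1, Mcm7, Fen1, Rfc4 and Msh6 among them, overlap exons of a gene on the other strand, and without strand such reads cannot be told apart. The same holds for Orc2 and Xpa, and Parp1 holds a microRNA gene on its own strand. The part of other cells in the rise of the replication genes was not tested.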

How the data were processed

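RNA from 3 young and 3 aged cultures was sequenced from the 3′ ends of transcripts (QuantSeq, from 500 ng of RNA, per the labels' protocols), so a value does not grow with gene length. The authors deposited CPM values for 25655 identifiers per library, and 1 identifier, blank in every file, was left out. The genome build was GRCm38 (mm10), per the submitters' processing notes, and what aligned and counted the reads, and on which annotation, is not given in the sources used here. A column name differed from the record: the file for Aged replicate 2 names its column as replicate 3, and the record was followed. Whole reads were recovered from the CPM steps, and 100% of values came out whole within 0.001 reads. On these reads edgeR called 1443 genes higher and 1557 lower. A count of 0 allows up to 3 reads, for counting error only, since molecular identifiers are not described.

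Groups came from the sample titles. The main test was limma 3.58.1 (R 4.3.3) with an intensity trend on log2(CPM + 1), for genes whose mean reached 1 CPM, two-sided, with age as the sole term. It called 1701 genes higher and 1313 lower. Calls were made at a Benjamini-Hochberg adjusted p under 0.05 over all tested genes, and the scale understates changes of low genes. Folds are ratios of mean CPM. The genes, all lists and the genes compared as ratios were chosen with earlier results of these data known. Full values are given for the 2 genes of each role with the smallest p, that with the largest p, every gene not called and the 2 lowest genes, and in other replication and repair lists up to 3 called genes per direction with the smallest p are named, apart from some that are not reported here. Alternatives were TMM, RLE and upper-quartile scaling, no filter or a mean of at least 5 CPM, pseudocounts of 0.1 and 5, edgeR 4.0.16, DESeq2 1.42.0 and limma-voom on recovered reads, thinning, leaving out each library, and the replicate number as a block. Gene positions are from GENCODE M21. Shared 3′ ends were those with at least 95% identity over 100 bases of the last 200.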

Additional observations from a re-analysis of the deposited data

How the results depend on the processing

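Over 18 alternative fits limma, edgeR and DESeq2 called 38 (DESeq2) to 44 of the 53 replication genes higher and 0 lower, and 38 of the 43 calls held in every fit. The other 5 (Orc1, Exo1, Gins1, Gins3 and Pola2) lost their call in at least 1 fit, and 5 of the 10 genes not called passed in at least 1. The median log2 fold change was 0.71 without Young replicate 2, and 0.71 to 0.88 when each library was left out in turn. DESeq2 called 952 of all tested genes higher and 1017 lower, and 21 of the other replication and fork repair genes higher. Leaving out a library gave 1322 to 1582 genes higher and 1011 to 1207 lower, with 2 libraries in 1 group and the spread pooled. The cause of these changes was not tested. The log2 difference of Msh6, 0.01, turned to -0.046 with TMM, -0.042 with RLE, -0.037 with upper-quartile scaling, -0.041 with edgeR, -0.038 with DESeq2 and -0.042 with limma-voom, and ran from -0.031 to 0.063 with each library left out. That of Gins4 ran from -0.038 (without Young replicate 2) to 0.22. The ratio of Cdt1 to Gmnn differed by -0.73 to -0.50 and that of Rfc1 to its partners by -0.48 to -0.39 with each library left out.

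No label says that a replicate number pairs a young with an aged library. Deviations from the group means of same-numbered libraries correlated across genes at 0.0209, 0.00025 and 0.0028. Those of differently numbered libraries correlated at -0.0259 to 0.0242. These values do not set same-numbered libraries apart, and they cannot show whether such libraries shared a day or batch. With the replicate block 43 replication genes were called higher, with a median of 0.82, and 1725 of all genes were higher and 1336 lower. The block changed no call among the replication genes. Low genes rested on few reads: at 5 to 23 reads per library, the 95% interval of the log2 difference of Dscc1 ran from 0.10 to 1.65. That of Rfc4, which was called at 7 to 23 reads, ran from 0.61 to 1.80. The part of depth in these intervals was not tested.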
